A study of Mus musculus with 2 samples.

Results

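The genes described here encode transcription factors that pattern the embryo: the T-box factors (Tbx), the zinc finger factors of the Gata, Zic and Sall families, the Sox factors, the AP-2 factors (Tfap2), and the basic helix-loop-helix factors Hand and Twist. They were chosen by symbol alone, as genes named Tbx, Gata, Zic, Sall, Hand, Sox or Twist followed by a number, or Tfap2 followed by a letter from a to e. The expression table held 56 such genes among 24015. The cells were mouse embryonic fibroblasts, grown in DMEM with fetal bovine serum and antibiotics, with 1 culture labelled Adar2-WT (genotype Adar2+/+) and 1 labelled Adar2-KO (genotype Adar2-/-). Adar2 is an RNA editing enzyme whose gene is listed as Adarb1. Embryo age, sex, strain, the deleted part of the gene and the passage of the cells were left unstated in the labels, and a kit, TruSeq or Nextera, is named without saying which library had which. Poly(A)+ RNA was sequenced from each culture, giving 1 library per genotype, so the spread between cultures is unknown, no test was made, and all intervals cover counting error only.

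Patterning factors of these families are switched on in particular parts of the embryo and then help to hold the identity of the cells that descend from them. T-box factors mark the limb buds, the heart and the pharynx. GATA factors act in heart, gut and blood, Zic factors in the dorsal neural tube, AP-2 factors in neural crest and face, and Sox factors in neural, cartilage and vessel lineages. Fibroblasts in culture are known to keep part of the pattern of the site they were taken from.

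The label of the cell type and of the genotype was checked against the table. All 10 fibroblast markers, among them the collagen gene Col1a1, the intermediate filament gene Vim and the receptor gene Pdgfra, ranged from 9.40 to 96.2 RPKM (WT-labelled) and from 11.3 to 97.9 RPKM (KO-labelled). Thy1, at 9.40 and 72.1 RPKM, and Dcn, at 29.7 and 12.3 RPKM, were the ones at least 2-fold apart. RPKM is the number of reads scaled to the length of the gene and the size of the library. No gene passed 107 RPKM in the WT-labelled or 124.3 RPKM in the KO-labelled library, a ceiling that can compress differences of abundant genes, so close values of markers near it, such as Vim, do not show equal expression. Adarb1 itself was at 18.4 RPKM in the WT-labelled library against 25.8 RPKM in the KO-labelled one, a ratio of reads of 1.30 to 1.51 by its counting interval. It was thus higher, not lower, in the library labelled as knockout. Which exon was deleted is left unstated, and a whole-gene value may count reads outside it, so it does not check the genotype. The libraries are therefore called WT-labelled and KO-labelled, and each direction rests on those labels. The values rested on 9446911 and 9546996 reads, in that order.

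Among the factors that were expressed, some were abundant in both cultures and others were close to absent in one of them. Of the 56 genes, 26 reached 1 RPKM in a library and were compared. Another 13 had reads but stayed under 1 RPKM, and 17 had no read in either library. At least 1 RPKM was reached by 17 of these factors in the WT-labelled library and by 21 in the KO-labelled one, with 12 in common. Thus 5 reached it in the WT-labelled library only and 9 in the KO-labelled library only. Of all 13867 genes compared in the same way, 763 reached it in the WT-labelled library only and 547 in the KO-labelled library only. The compared gene nearest above the limit was Tbx6, with a larger value of 1.71 RPKM, and the nearest below were Sox18 (0.915 RPKM) and Sox15 (0.837 RPKM).

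On the scale of RPKM + 1, 12 of the 26 compared factors were at least 2-fold higher in the KO-labelled library, where 4.42% of all 13867 compared genes were. The factors at least 2-fold lower numbered 5, against 7.46% of all genes. The remaining 9 lay within 2-fold. A 2-fold difference on this scale cannot occur under 1 RPKM, so the same 17 genes can be read as 30.4% of all 56, where 6.86% of the 24015 genes in the table were 2-fold apart. The median log2 ratio of the compared factors was 0.42, against 0.01 for all genes compared. Over all 56 factors it was 0.00, with a limit of 5 RPKM in place of 1 it was 0.73, and it was 0.26 by GFOLD, a log2 fold change in the authors' deposited table that is shrunken toward 0 where reads are few. The families were picked with earlier results of these libraries known, so these shares describe the list and are no test of it. Hox genes, the other large group of positional factors, had 9 of 25 compared genes at least 2-fold higher and 1 lower, and forkhead genes 2 of 26 higher and 1 lower. No difference between these groups was tested.

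**Figure D1:**
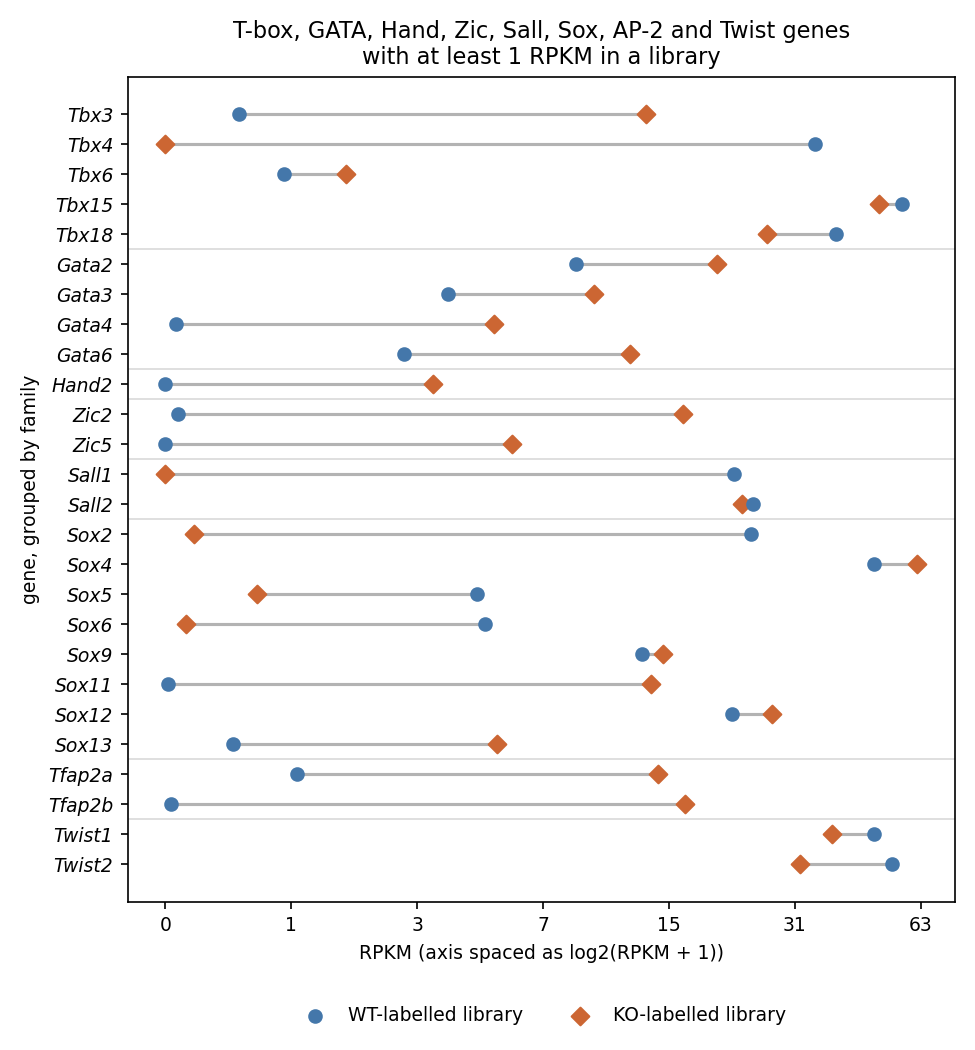
Level of each of the 26 factors with at least 1 RPKM in a library, as RPKM on an axis spaced as log2(RPKM + 1), grouped by family. Circles are the WT-labelled library and diamonds the KO-labelled library, 1 library each. Tbx4 and Sall1 sit at 0 in the KO-labelled library and Zic5 and Hand2 at 0 in the WT-labelled library, while Tbx15, Sox4, Twist1 and Sall2 lie close together.

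Several of these differences were between a clearly expressed gene and next to no reads. Of the 22 factors with at least 5 RPKM in a library, 7 had at most 3 reads in the other. Such a pattern was met by 1.24% of the 11722 genes in the table with at least 5 RPKM in a library. Tbx4 and Sall1 had their reads in the WT-labelled library, and Gata4, Sox11, Tfap2b, Zic2 and Zic5 in the KO-labelled library. In a bulk library, fewer cells that express a gene and less RNA of it in each cell cannot be told apart.

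**Figure D2:**
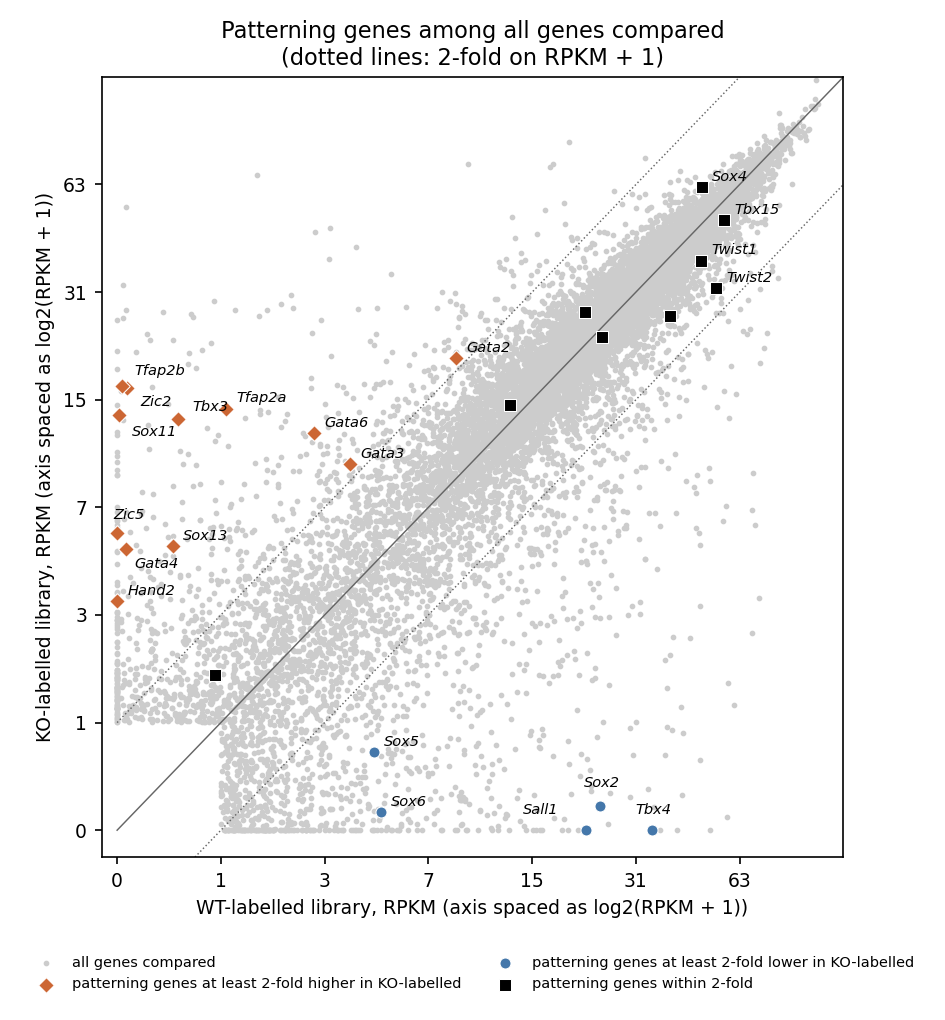
Each compared gene by its RPKM in the WT-labelled library (horizontal) and the KO-labelled library (vertical), both axes spaced as log2(RPKM + 1), with all 13867 compared genes in grey and the 26 factors marked by their side of the 2-fold lines. The 12 factors at least 2-fold higher in the KO-labelled library lie above the upper dotted line and the 5 lower ones below the lower dotted line.

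The stretches before the annotated starts of some of the genes that differed most are printed here to show what kind of promoter stands at genes that were read in 1 culture and nearly silent in the other. They belong to the factors at least 2-fold apart that reached 10 RPKM and have exactly 1 start in the RefSeq promoter table. Each is the 250 bases before that start, 5′ to 3′ on the gene's strand, from RefSeq on GRCm38.p6, which is not the mm9 build of the deposited files. Capitals mark every CG, the dinucleotide that is methylated in mammals and is dense in CpG islands.
Tbx4: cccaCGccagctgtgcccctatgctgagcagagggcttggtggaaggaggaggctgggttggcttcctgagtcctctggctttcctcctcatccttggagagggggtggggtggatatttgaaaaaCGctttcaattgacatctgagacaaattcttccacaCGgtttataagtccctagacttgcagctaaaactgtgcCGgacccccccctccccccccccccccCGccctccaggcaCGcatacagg
Sox2: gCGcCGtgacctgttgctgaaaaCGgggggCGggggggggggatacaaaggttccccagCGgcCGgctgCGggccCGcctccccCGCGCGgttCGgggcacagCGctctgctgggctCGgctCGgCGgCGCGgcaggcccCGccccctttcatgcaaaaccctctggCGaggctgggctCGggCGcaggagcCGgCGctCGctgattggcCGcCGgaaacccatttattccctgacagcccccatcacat
Sox11: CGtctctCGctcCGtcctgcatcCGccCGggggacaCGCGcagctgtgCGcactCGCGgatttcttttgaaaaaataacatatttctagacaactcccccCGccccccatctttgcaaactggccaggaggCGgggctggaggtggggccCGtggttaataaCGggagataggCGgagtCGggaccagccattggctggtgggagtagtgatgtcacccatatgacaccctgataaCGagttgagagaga
Tfap2b: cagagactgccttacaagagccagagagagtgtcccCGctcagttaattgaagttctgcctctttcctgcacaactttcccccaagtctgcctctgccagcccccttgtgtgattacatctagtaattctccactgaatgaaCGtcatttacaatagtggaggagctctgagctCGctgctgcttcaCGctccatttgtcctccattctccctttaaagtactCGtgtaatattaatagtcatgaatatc
The Tbx4 stretch lies at chr11:85896515-85896764 (plus strand), that of Sox2 at chr3:34649745-34649994 (plus strand), that of Sox11 at chr12:27342719-27342968 (minus strand) and that of Tfap2b at chr1:19211804-19212053 (plus strand).

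The 4 stretches were of unlike composition. Sox2 had 27 CG and 72% G + C, and Sox11 had 17 CG and 58%. Tbx4 had 6 CG at a G + C content of 58.4%, and Tfap2b 5 CG at 46.4%. Sox2 and Sox11 thus met a usual CpG island limit in this window (at least 50% G + C and an observed to expected CG ratio of at least 0.6), with ratios of 0.83 and 0.81. Tbx4 and Tfap2b, at 0.28 and 0.39, did not. The table gave a start for 38 of the 56 factors. Taking the most upstream start of each gene, 21 of those 38 promoters (55.3%) were CpG-rich by this limit, against 31.4% of 27025 genes. Among factors at least 2-fold apart 6 of 13 were CpG-rich, among those within 2-fold 5 of 7, and among those under 1 RPKM in both libraries 10 of 18.

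Short binding motifs of these families were also counted in the 250 bases, on both strands. The T-box core AGGTGT was in 4 of the 38 promoters and in 12% of all genes' promoters. For GATA factors the letters AGATAA were in 4 of 38 and in 10.2% of all. The Sox core ACAATG was in 2 of 38 and in 10.9% of all, and the AP-2 letters GCCNNNGGC were in 7 of 38 and in 13.5%. The E-box CANNTG, which Hand and Twist proteins can bind, was in 22 of 38 and in 66.1%. No motif was masked where it overlapped another. Of the 4 printed stretches, Sox11 held the AP-2 letters at 1 place, and Sox11, Tbx4 and Tfap2b held 2, 3 and 1 E-boxes. A match describes letters in this window and does not show a site in use.

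Among limb factors, Tbx4 and Sall1 were read in the WT-labelled library alone. Tbx4, which drives hindlimb bud outgrowth, was at 34.7 RPKM (1069 reads) in the WT-labelled library, above 75.8% of genes with at least 1 RPKM there. In the KO-labelled library it had 0 reads, where a floor of 3 reads would be 0.0965 RPKM, so it was at least 360-fold higher in the WT-labelled library. Of all 13867 compared genes it had the fifth lowest log2 ratio (rank 5, log2 ratio -5.16). Tbx5, its forelimb counterpart, had 0 and 3 reads. The reads of both cultures together thus held the hindlimb gene in 1 culture and next to nothing of the forelimb gene in either. Pitx1, a homeobox gene upstream of Tbx4 in the hindlimb and named here after its values were seen, was at 46.0 RPKM in the WT-labelled library against 39.6 RPKM in the KO-labelled one.

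Sall1, a zinc finger gene of limb and kidney development, had its reads in the same library as Tbx4. It was at 21.9 RPKM (1088 reads) in the WT-labelled library but at 0 reads in the KO-labelled library, at least 367-fold higher in the former against a floor of 3 reads. Its GFOLD value in the authors' deposited table was -7.32, and that of Tbx4 was -7.29. Its relatives Sall3 (1 read, in the KO-labelled library) and Sall4 (no read in either), which also act in limb buds, had next to no reads at this depth. Tbx2, a limb bud and heart repressor, had 12 and 4 reads.

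The opposite direction was seen for the limb factors Tbx3 and Hand2. Tbx3, a T-box repressor of the limb margin and mammary gland, was at 0.503 RPKM (23 reads) in the WT-labelled library against 13.1 RPKM (603 reads) in the KO-labelled one, 25.9-fold higher (95% interval 17.1 to 41.2). Hand2, which acts upstream of Shh in the posterior limb bud and also in heart and jaw, had 0 reads and 72 reads (3.37 RPKM), at least 23.7-fold higher in the KO-labelled library. Tbx3 and Hand2 were thus near silent in the WT-labelled library, the reverse of Tbx4 and Sall1. Scrg1, the nearest gene after Hand2 in the RefSeq order and named after its values were seen, went the other way, with 15 reads and 0 reads.

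The broadly expressed limb mesenchyme factors were abundant in both cultures. Tbx15, active in limb and trunk mesenchyme and dermis, was the highest of the 56 genes in the WT-labelled library at 56.7 RPKM and second in the KO-labelled library at 49.9 RPKM, 1.14-fold lower there (1.06 to 1.21). Twist1, a mesenchymal factor of limb and cranial crest, was at 48.4 RPKM (745 reads) and 38.2 RPKM (595 reads), 1.27-fold lower in the KO-labelled library (1.13 to 1.41). Both intervals leave out 1, and both differences are small beside those of Tbx4 and Sall1.

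Other limb patterning genes more often lay within 2-fold than not. Of 28 genes on that list, which holds no gene of the families above, 22 were compared: 1 was at least 2-fold higher in the KO-labelled library, 4 were at least 2-fold lower and 17 lay within 2-fold (median log2 ratio -0.19, against 0.01 for all genes). The 5 genes apart were 22.7% of the list, against 11.9% of all genes compared, and the 4 lower ones 18.2%, against 7.46%. At the lower end, among genes with at least 5 RPKM, were the LIM homeobox genes Lhx9 (1102 reads and 110 reads, WT-labelled first) and Lmx1b, the dorsal limb factor (20.1 and 2.92 RPKM). At the upper end were Meis1, a homeobox gene of the proximal limb (6.28 and 13.6 RPKM), and Etv4, a target of FGF signalling (15.3 and 23.4 RPKM). Shh had no read in either library.

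Cartilage factors differed by type. Sox9, the master regulator of cartilage, was at 12.8 RPKM (502 reads) in the WT-labelled library against 14.5 RPKM (572 reads) in the KO-labelled one, with a ratio whose interval reaches just under 1 (1.13, 0.998 to 1.27). Sox5 and Sox6, SoxD factors that act with SOX9 on cartilage genes, were lower in the KO-labelled library. Sox6 was at 4.82 RPKM (426 reads) and 0.123 RPKM (11 reads), 39.1-fold lower in the KO-labelled library (21.7 to 79.0). Sox5 was at 4.55 RPKM (315 reads) and 0.657 RPKM (46 reads), 6.92-fold lower (5.07 to 9.65). The third SoxD gene, Sox13, known from T cells among other tissues, went the other way, from 0.450 RPKM (15 reads) to 5.22 RPKM (176 reads), 11.6-fold higher in the KO-labelled library (6.85 to 21.2).

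Among genes that SOX9 acts on in cartilage, those at least 2-fold apart were all lower in the KO-labelled library. Of 18 listed, 16 were in the table and 9 were compared, with 0 at least 2-fold higher in the KO-labelled library, 3 at least 2-fold lower (33.3%, against 7.46% of all genes) and 6 within 2-fold (median log2 ratio -0.45). Col2a1, the main cartilage collagen gene, was at 48.0 RPKM in the WT-labelled library against 0.571 RPKM in the KO-labelled one. Nkx3-2, a homeobox gene of early cartilage, was at 13.6 and 0.292 RPKM. Runx2 (28.5 and 27.0 RPKM) and Col11a1 (12.0 and 8.57 RPKM) had the highest ratios among genes with at least 5 RPKM. Below that level Col11a2, Col27a1 and Matn4, named after their values were seen, had log2 ratios of 0.61, 0.61 and 0.51. Of 5 cartilage cell markers, Col2a1 alone reached 1 RPKM, their summed level was 48.4 RPKM in the WT-labelled library against 0.898 RPKM in the KO-labelled one, and the defining cartilage genes Acan, Matn1 and Col9a1 were at or near 0 in both. The part of cartilage cells in the Sox5 and Sox6 values was not tested.

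Factors of the somites and the dermis were close. Tbx18, a factor of the sclerotome, epicardium and ureter, was at 39.1 RPKM (1730 reads) and 26.5 RPKM (1183 reads), 1.48-fold lower in the KO-labelled library (1.37 to 1.59). Twist2, a dermal fibroblast factor, was at 53.8 RPKM (667 reads) and 31.9 RPKM (399 reads), 1.69-fold lower (1.49 to 1.92). Tbx6, a factor of the presomitic mesoderm, was at 0.926 RPKM (15 reads) and 1.71 RPKM (28 reads), a ratio of 1.85 whose interval (0.954 to 3.72) includes 1. Twist1 and Twist2 together summed to 102 RPKM in the WT-labelled library against 70.1 RPKM in the KO-labelled one.

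All 4 compared GATA genes were at least 2-fold higher in the KO-labelled library, where 4.42% of all compared genes were. The family sum was 15.2 RPKM in the WT-labelled library against 46.5 RPKM in the KO-labelled one. Gata4, a heart and gut regulator, was at 0.0624 RPKM (2 reads) in the WT-labelled library against 5.12 RPKM (166 reads) in the KO-labelled one, a ratio of 82.1 (22.4 to 684). Gata6, which acts in heart and endoderm, was at 2.72 RPKM (82 reads) and 11.9 RPKM (362 reads), a ratio of 4.37 (3.43 to 5.62). Both compared genes of the heart group were thus read mainly in the KO-labelled library, from different starting levels. Gata5 and Hand1, heart factors as well, had no read in either library, and Tbx20 had 1 and 5 reads.

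Genes of heart muscle itself were not high in either culture. Of 11 listed, 5 were compared and all 5 lay within 2-fold (median log2 ratio -0.37). Only 11.9% of all compared genes were 2-fold apart, so this is near the share over all genes. Mef2c, also used outside the heart, was at 10.8 and 7.36 RPKM and was 1 of 3 with a ratio below 0. The 2 above 0, named after their values were seen, were Nppb (1 and 9 reads) and Tnnt2 (6 and 15 reads). Their log2 ratios on the scale of RPKM + 1, 0.96 and 0.58, understate the change of genes so low. The 5 heart muscle markers summed to 3.91 RPKM in the WT-labelled library against 3.69 RPKM in the KO-labelled one, and the myosin gene Myh6 was at 0 in both. Mesothelial markers, since GATA4 and GATA6 are also factors of the body cavity lining, summed to 69.0 and 46.2 RPKM over 4 genes. Krt19 (59.4 and 18.8 RPKM) was lower and Msln (9.01 and 27.3 RPKM) higher in the KO-labelled library, and Wt1 was near 0 in one and 0 in the other. Their part in the Gata4 and Gata6 values was not tested.

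The GATA genes named for blood were expressed in both cultures. Gata2, needed in blood stem cells and also active in mesenchyme, was at 8.62 RPKM (264 reads) and 19.9 RPKM (616 reads), 2.31-fold higher in the KO-labelled library (2.0 to 2.68). Gata3, a factor of T cells, kidney and skin, was at 3.75 RPKM (114 reads) and 9.58 RPKM (294 reads), 2.55-fold higher (2.05 to 3.20). Their ratios were the smallest among the 12 higher factors. Gata1, the red cell factor, had 1 read and Tbx21, a T helper cell factor, none. Of 7 blood and immune markers, 2 reached 1 RPKM in a library, the sum was 7.27 RPKM in the WT-labelled library against 7.55 RPKM in the KO-labelled one, and Hba-a1 was at 0 in both. The near-equal sum came from genes that went opposite ways, the macrophage receptor gene Csf1r (64 and 3 reads, more than 2-fold apart) and Cd68 (5.15 and 7.40 RPKM). Their part in the Gata2 and Gata3 values was not tested.

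**Figure D3:**
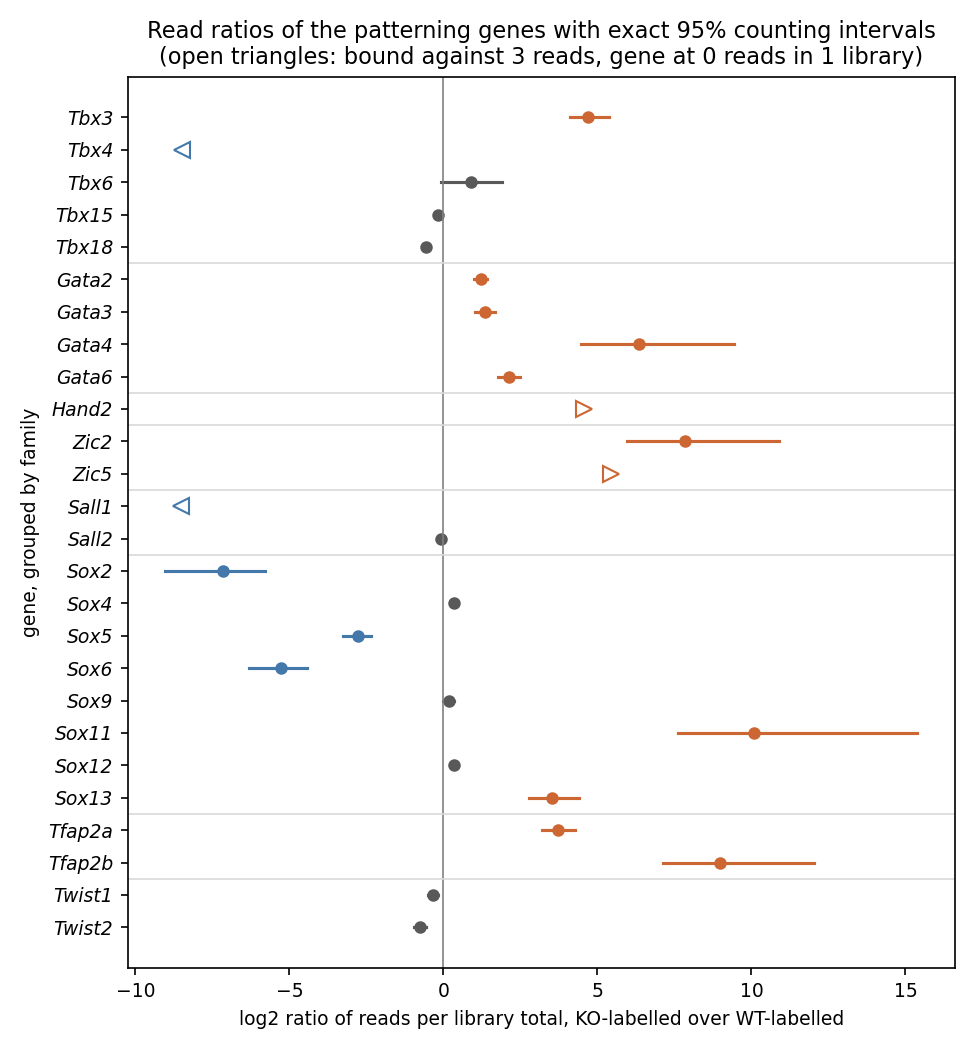
Log2 ratio of reads per library total, KO-labelled over WT-labelled, for the 26 compared factors, with exact 95% intervals for counting error. Open triangles give the bound against a floor of 3 reads for a gene with 0 reads in 1 library. Intervals of 23 factors leave out 0, and those of Sall2, Sox9 and Tbx6 include it. With many reads an interval leaves out 0 even at a small ratio, as for Tbx15 (-0.18, 1909 and 1698 reads). The same share over all genes was not counted, so the 23 say nothing particular about these factors.

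AP-2 genes of the face and neural crest were read almost wholly in the KO-labelled library. Tfap2b, a factor of neural crest and kidney, was at 0.0326 RPKM (2 reads) in the WT-labelled library against 16.5 RPKM (1023 reads) in the KO-labelled one, a log2 reads ratio of 8.98 (7.13 to 12.03). Tfap2a, required for face and neural crest development, was at 1.07 RPKM (33 reads) and 14.1 RPKM (439 reads), a ratio of 13.2 (9.23 to 19.4). The family sum was 1.20 RPKM in the WT-labelled library against 30.6 RPKM in the KO-labelled one. Tfap2d, the next gene to Tfap2b in the RefSeq order, had no read in either library, as had Tfap2c. Tfap2e had 2 reads, in the WT-labelled library.

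Other compared genes of neural crest were not 2-fold apart. Of 10 listed, 5 were compared and all lay within 2-fold (median log2 ratio -0.17). That is near the share over all compared genes, of which 11.9% were 2-fold apart. Among the 5 were the zinc finger genes Snai2 (60.5 and 47.9 RPKM) and Snai1 (52.6 and 45.3 RPKM), which also act in mesenchyme generally. The crest stem cell genes Foxd3, Pax7 and Ngfr had no read in either library, and neither had Sox10. Sox8, another crest factor, had 13 and 21 reads. Tbx1, a pharyngeal factor, had 0 and 5 reads, and Tbx22, a palate factor, none. Of 6 epithelial markers, added because AP-2 factors are also high in skin, 2 reached 1 RPKM in a library, and the sum was 2.35 RPKM in the WT-labelled library against 1.77 RPKM in the KO-labelled one. These 2 went opposite ways, the adhesion gene Cdh1 with 75 and 3 reads and the keratin gene Krt8 with 1 and 18 reads. Their part in the AP-2 values was not tested.

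Among factors of the brain and neural tube, Zic genes and Sox2 went opposite ways. Zic2, needed for neural tube closure and forebrain, was at 0.0714 RPKM (2 reads) in the WT-labelled library against 16.3 RPKM (461 reads) in the KO-labelled one, a ratio of 228 (62.8 to 1889). Zic5, a crest and neural tube factor, had 0 reads and 131 reads (5.76 RPKM), at least 43.2-fold higher in the KO-labelled library. Sox2, a factor of neural stem cells, pluripotent cells and some skin papillae, was at 24.2 RPKM (561 reads) in the WT-labelled library against 0.171 RPKM (4 reads) in the KO-labelled one, a ratio of 142 (55.1 to 522) the other way. Sall2, a zinc finger factor of the eye and neural tube, was at 24.5 RPKM (1235 reads) and 23.0 RPKM (1171 reads), with an interval that includes no difference (ratio 1.07, 0.983 to 1.16). Zic1, Zic4, Sox1, Sox3, Sox14 and Tfap2d, also factors of the brain and neural tube, had no read in either library.

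Neural and pluripotent markers were set beside Sox2. Of 6 markers of neurons and glia, 3 reached 1 RPKM in a library, with a sum of 54.0 RPKM in the WT-labelled library against 34.4 RPKM in the KO-labelled one. The sum came mainly from the cytoskeletal genes Map2 (32.7 and 15.8 RPKM) and Tubb3 (20.1 and 15.7 RPKM), and the synaptic gene Snap25 was at 0 in both. Of 4 pluripotency markers, Nanog alone reached 1 RPKM, and their sum was 0.923 RPKM in the WT-labelled library against 3.16 RPKM in the KO-labelled one, with Lin28a and Zfp42 at 0 in both. The part of neural cells in the Sox2 value was not tested. Sox2ot, a noncoding RNA gene whose span holds Sox2 on the same strand in the GENCODE annotation and named after its values were seen, had 7 reads and 0 reads.

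The SoxC genes, used in many progenitors, split by member. Sox4, the highest of all 56 genes in the KO-labelled library, was at 48.6 RPKM (1355 reads) in the WT-labelled library against 61.8 RPKM (1743 reads) in the KO-labelled one, a ratio of 1.27 (1.18 to 1.37). Sox12 was at 21.7 RPKM (908 reads) and 27.2 RPKM (1152 reads), a ratio of 1.26 (1.15 to 1.37). Sox11, known from neural and mesenchymal progenitors, had 1 read in the WT-labelled library and 1091 reads (13.5 RPKM) in the KO-labelled library, a log2 reads ratio of 10.08 (7.60 to 15.38). The SoxC sum was 70.3 RPKM in the WT-labelled library against 103 RPKM in the KO-labelled one.

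Factors of vessels, glands and germ line were low or absent. The SoxF genes of endothelium, Sox7 (11 and 3 reads), Sox18 (14 and 4 reads) and Sox17 (no read), stayed under 1 RPKM in both libraries. Endothelial markers had the same direction: 2 of 6 reached 1 RPKM, and the sum was 27.2 RPKM in the WT-labelled library against 7.79 RPKM in the KO-labelled one, mostly from Erg (23.2 and 7.38 RPKM), with Tie1 at 0 in both. Their part in the SoxF values was not tested. Sox15 was at 0.837 and 0.828 RPKM. Sox30 (2 reads, KO-labelled), Sox21 (1 read, WT-labelled), Tbx10 and Tbx19 completed the list, the last 2 with no read. None of 5 skeletal muscle markers reached 1 RPKM.

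**Figure D4:**
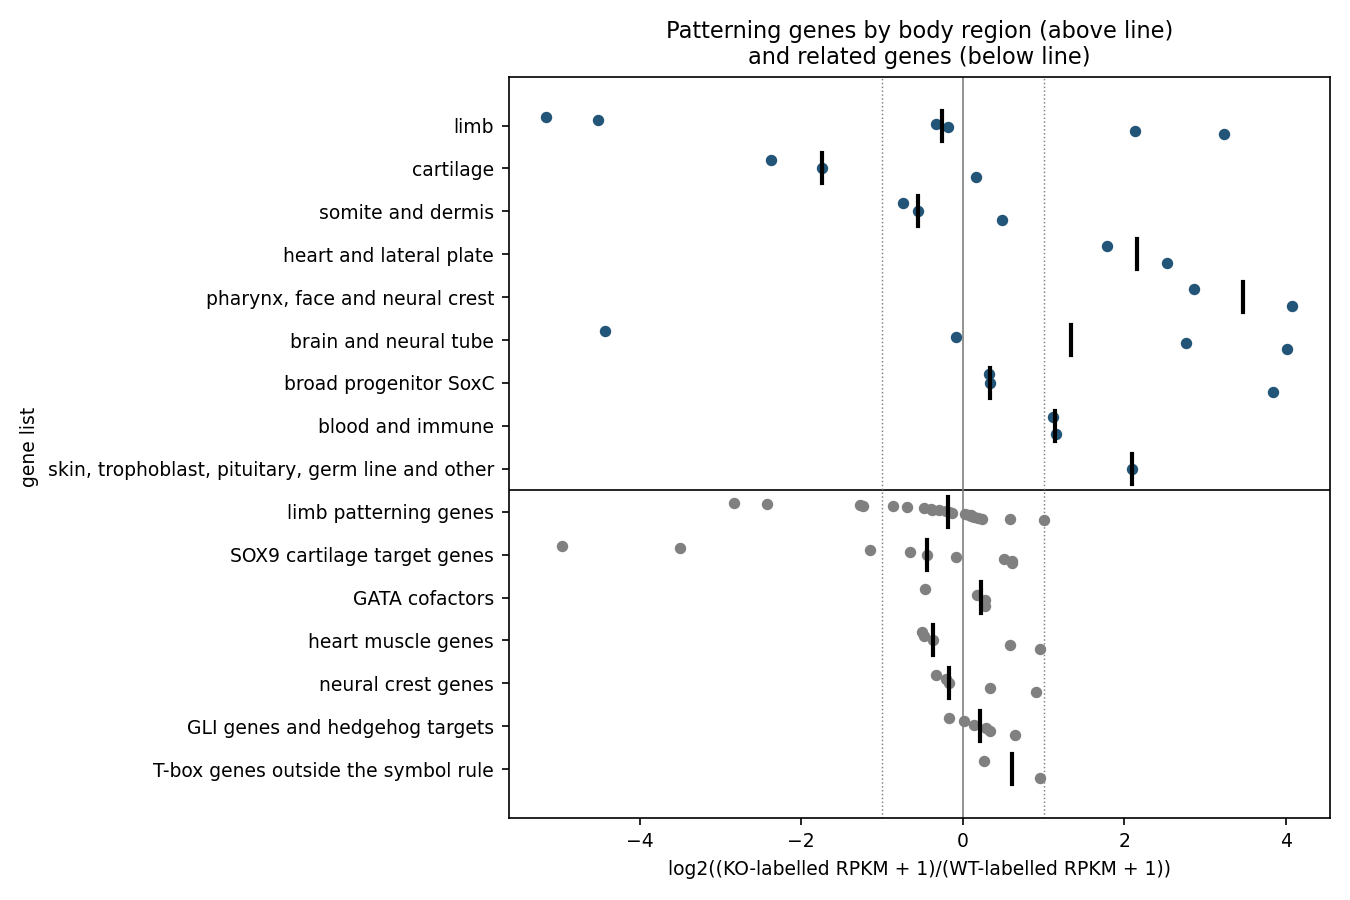
Log2 ratio of RPKM + 1 for each gene with at least 1 RPKM in a library, with the patterning factors by body region above the line and related genes below it. Bars are medians and dotted lines mark 2-fold. The limb row spans from -5.16 (Tbx4) to 3.23 (Tbx3), while the heart muscle and neural crest gene lists lie wholly within 2-fold. Of all compared genes, 11.9% were 2-fold apart.

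Position along the chromosome was compared by the order of genes in the RefSeq list. Zic5 and Zic2 stand on chromosome 14 with 1 gene of the table between them, 2610035F20Rik, and all of these were read mainly in the KO-labelled library. That gene, named after its values were seen, had 1 read in the WT-labelled and 45 reads (4.10 RPKM) in the KO-labelled library. Zic1 and Zic4, neighbours on chromosome 9, had no reads. Tbx2 and Tbx4, neighbours on chromosome 11, were both lower in the KO-labelled library in read number, though the Tbx2 interval (3.03, 0.919 to 12.9, WT-labelled over KO-labelled) includes 1. Tbx3 and Tbx5 are close on chromosome 5, and Tbx3 alone was above 3 reads. Over the 17 factors at least 2-fold apart there were 32 neighbouring places held by a gene of the table outside these families. In 23 of these the neighbour was under 1 RPKM in both libraries, in 6 it lay within 2-fold, in 2 it was 2-fold apart in the same direction (both are 2610035F20Rik, seen from Zic5 and from Zic2) and in 1 in the opposite direction.

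RNA editing, the other readout of the study, listed no site in these genes. Of the 654 edited sites listed for the WT-labelled library and the 110 listed for the KO-labelled one, 0 carried the name of any of the 56 genes. The sites carried only 204 and 69 gene names of the 24015 in the expression table, so a count of 0 among 56 genes says nothing particular about these factors. The lists hold only called sites and do not show that these transcripts were unedited.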

How the data were processed

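Titles and genotype labels gave the group of each library. STAR 2.4.0d, SAMtools and the build mm9 come from the submitters' processing notes, which give no roles. The authors deposited 1 table with an RPKM value per gene and library, a log2 fold change, a shrunken log2 fold change (GFOLD) and an empirical FDR, a q-value that was 1 in every row and was not used, per the file headers. The editing lists deposited by the authors give counts of reads per site and a fraction for its editing level, per the file headers. No source used here states the annotation, counting rule or strand use; 11 of the 26 compared factors overlap a gene on the opposite strand in GENCODE, so their reads cannot be assigned to a strand.

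Whole reads were recovered from the RPKM values and the deposited log2 fold change, which the values fit as that of reads plus 1, shifted by a constant; no header states this. Of 17981 genes above 0, 17266 (96%) had exactly 1 solution in the 6 printed digits, as had 38 of the 39 factors with reads; Sox15 had several. The step was tested on simulated data. No gene exceeded 0.997 and 1.19 reads per base in the WT-labelled and KO-labelled library, a ceiling that can compress abundant genes. The factors reached at most 0.59. Whether the small ratios of the most abundant factors, such as Sox4 and Tbx15, were compressed was not tested, and their counting intervals do not cover it.

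Comparison of genes reaching 1 RPKM used log2((KO + 1)/(WT + 1)). Ratios of reads per library total carry exact 95% intervals (Clopper-Pearson, conditional on the sum). By the naming rule, factors with at least 1 RPKM are given with both values, and genes outside the families only as the 2 highest and 2 lowest ratios of a list among those with at least 5 RPKM. Reads of factors under 1 RPKM, and list or marker genes named at or near 0 or under 5 RPKM, go beyond that rule and were chosen after their values were seen. The families, gene lists and body regions were chosen with earlier results of these data known. Python 3.11.15, scipy 1.17.1 and pandas 2.3.3 were used. Not every factor counted is reported by name here.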

Additional observations from a re-analysis of the deposited data

How the results depend on the processing

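No paired analysis was possible because each genotype had 1 library, and for the same reason no library could be left out. Over 7 other settings, giving 178 values of single factors, 0 factors changed their side of the 2-fold limits. Among factors past 2-fold, 0 values reversed in sign. Most of these settings could hardly bring a factor back within 2-fold. Filters leave a ratio as it is, centring and upper-quartile scaling moved ratios very little, and a smaller pseudocount only widens a ratio. Among factors past 2-fold, GFOLD lay nearer to 0 only for Gata2 (1.01 against 1.12), Gata3 (1.04 against 1.15) and Gata6 (1.77 against 1.79). For the others past 2-fold it lay further from 0, so these counts of 0 are weak support. With at least 5 RPKM in a library in place of 1, 11 higher and 3 lower factors were left of 22 compared, since Sox5, Sox6 and Hand2 are under that limit. The median log2 ratio was 0.58 with a pseudocount of 0.1, 0.49 with 0.5, 0.73 with at least 5 RPKM, 0.00 over all 56 genes with no filter, and 0.26 by the GFOLD values of the authors' deposited table. Centring on the median of all genes or scaling to the upper quartile gave 0.41 and 0.42. Counts of 1 to 4 reads limit the size of the Sox11, Gata4, Zic2, Tfap2b and Sox2 ratios, whose direction is outside counting error.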

Other observations

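Cofactors of the GATA proteins lie outside the symbol rule. Of 6 GATA cofactors, 4 were compared and 0 were 2-fold apart (median log2 ratio 0.22). With 11.9% of all compared genes apart, a count of 0 among 4 says nothing particular about these cofactors. The cofactor genes Zfpm2 (22.6 and 27.5 RPKM, WT-labelled first) and Zfpm1 (14.7 and 10.3 RPKM) and the adaptor gene Ldb1 (45.1 and 55.1 RPKM) were all expressed, while Tal1 and Lmo2, partners of GATA factors in blood cells, stayed under 1 RPKM.

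GLI factors, zinc finger relatives of the Zic family that carry hedgehog signals, and genes of that pathway were expressed in both cultures. Of 8 listed, 6 were compared and all lay within 2-fold (median log2 ratio 0.21), from Gli3 (23.4 and 20.8 RPKM, WT-labelled first) to Gli2 (13.2 and 21.3 RPKM), with the receptor gene Smo at 37.1 and 37.5 RPKM. Of the 4 T-box genes outside the symbol rule, Mga was at 16.7 and 20.2 RPKM. Eomes, the other compared gene of these 4 and named after its values were seen, had 6 and 45 reads (0.171 and 1.27 RPKM), a log2 ratio of 0.95 on the scale of RPKM + 1, which understates the change of so low a gene.

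Membership among the most abundant factors overlapped in part. Of the 10 highest factors in each library 7 were in common: Tbx15, Twist1, Twist2, Sox4, Sox12, Tbx18 and Sall2. The other 3 were Tbx4, Sox2 and Sall1 in the WT-labelled library and Gata2, Tfap2b and Zic2 in the KO-labelled library.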
